A study of Mus musculus with 22 samples.

Results

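Chemokine genes and the genes of their receptors were described in mouse pancreatic cancer, in whole tumors and in cultured lines that lack or carry microRNA-21 (miR-21). Members were the protein-coding genes named Ccl, Cxcl, Ccr or Cxcr with a number straight after, together with Cx3cl1 and Cx3cr1. The rule found 54 of the 53342 genes in the count tables, of which 36 encode ligands and 18 encode receptors. The libraries, each from 1 tumor or 1 line, comprised 8 miR-21 knockout (KO) tumors, 4 wild-type (WT) tumors, 5 KO lines and 5 WT lines. Per the labels, all came from the Bl6 mouse line and none had been treated. The series title names K-Ras-driven models, and the labels record recombined K-Ras and p53 alleles in the lines of both genotypes. Lines were grown from dissociated tumors of animals with symptoms and passaged at least 8 times to lose fibroblasts. They were used at passage 10 to 14 in 5% serum. The Cre driver, the ages of the animals and the nature of the miR-21 allele are not given in the sources used here. By their titles, 5 animals (2 KO, 3 WT) gave both a line and a tumor.

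Chemokines are small secreted or membrane-anchored proteins that guide leukocytes along gradients. They act through receptors that couple to inhibitory G proteins. CXC ligands with a glutamate-leucine-arginine (ELR) motif attract neutrophils through Cxcr2, Ccl2 and its relatives attract monocytes through Ccr2, and Ccl19, Ccl21 and Cxcl13 organise lymphoid tissue through Ccr7 and Cxcr5. In pancreatic cancer, chemokines are known as signals between cancer cells, fibroblasts and myeloid cells. MicroRNA-21 lowers mRNAs that carry a match to its seed, and the study compared tissue and cells that lack it with those that carry it.

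Values are CPM, the counts of a gene scaled to a common library size, with TMM factors over all 22 libraries. Library totals were 24547650 to 30106745 counts in KO tumors, 27332257 to 29987227 in WT tumors, 24796473 to 31118113 in KO lines and 25468350 to 28888902 in WT lines. Mir21a had 0 counts in all 22 libraries, WT included, so the counts check no genotype label. Summed leukocyte markers (Ptprc, Laptm5 and Coro1a) were 90.9 to 1088 CPM in KO tumors, 136 to 513 CPM in WT tumors, 1.51 to 2.23 CPM in KO lines and 0.402 to 3.74 CPM in WT lines. Summed markers of fibroblasts (7 genes) were 1879.8 to 12377 CPM in KO tumors, 2816 to 7593 CPM in WT tumors, 3.25 to 7.51 CPM in KO lines and 2.23 to 15.7 CPM in WT lines. Markers of ductal epithelium were high in both materials, at 3940.4 to 7937 CPM in KO tumors, 6037 to 13974 CPM in WT tumors, 8796 to 11402 CPM in KO lines and 7382 to 14454 CPM in WT lines. Markers of acinar cells, the enzyme-secreting cells of the normal pancreas, were 27.1 to 2049 CPM in KO tumors and 14.7 to 393 CPM in WT tumors. The tumors were bulk tissue, so fewer cells of a type and less RNA per cell cannot be told apart in them.

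Lines and tumors expressed different parts of the chemokine system. The lines carried a few ligands and almost no receptor, whereas the tumors carried most ligands and most receptors. At a group mean of 1 CPM or more, 30 ligands and 11 receptors were present in KO tumors, 32 ligands and 10 receptors in WT tumors, 13 ligands and 0 receptors in KO lines, and 14 ligands and 0 receptors in WT lines. Summed over the 18 receptors, the level was 69.2 to 522 CPM in KO tumors, 91.9 to 275 CPM in WT tumors, 0.290 to 1.88 CPM in KO lines and 0.253 to 1.89 CPM in WT lines. Summed over the 36 ligands, it was 600 to 1828 CPM in KO tumors, 793 to 1213 CPM in WT tumors, 328 to 414 CPM in KO lines and 203 to 744 CPM in WT lines. Ccl21b, Ccl26 and Ccl27b had 0 counts in every library. A count of 0 in the smallest library, KO tumor 4, allows up to 0.122 CPM (3 counts) before TMM scaling, by counting error only. Ccl21a and Ccl27a have near-identical copies in the genome, so reads could have been split or lost between copies, and their levels are uncertain.

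**Figure D1:**
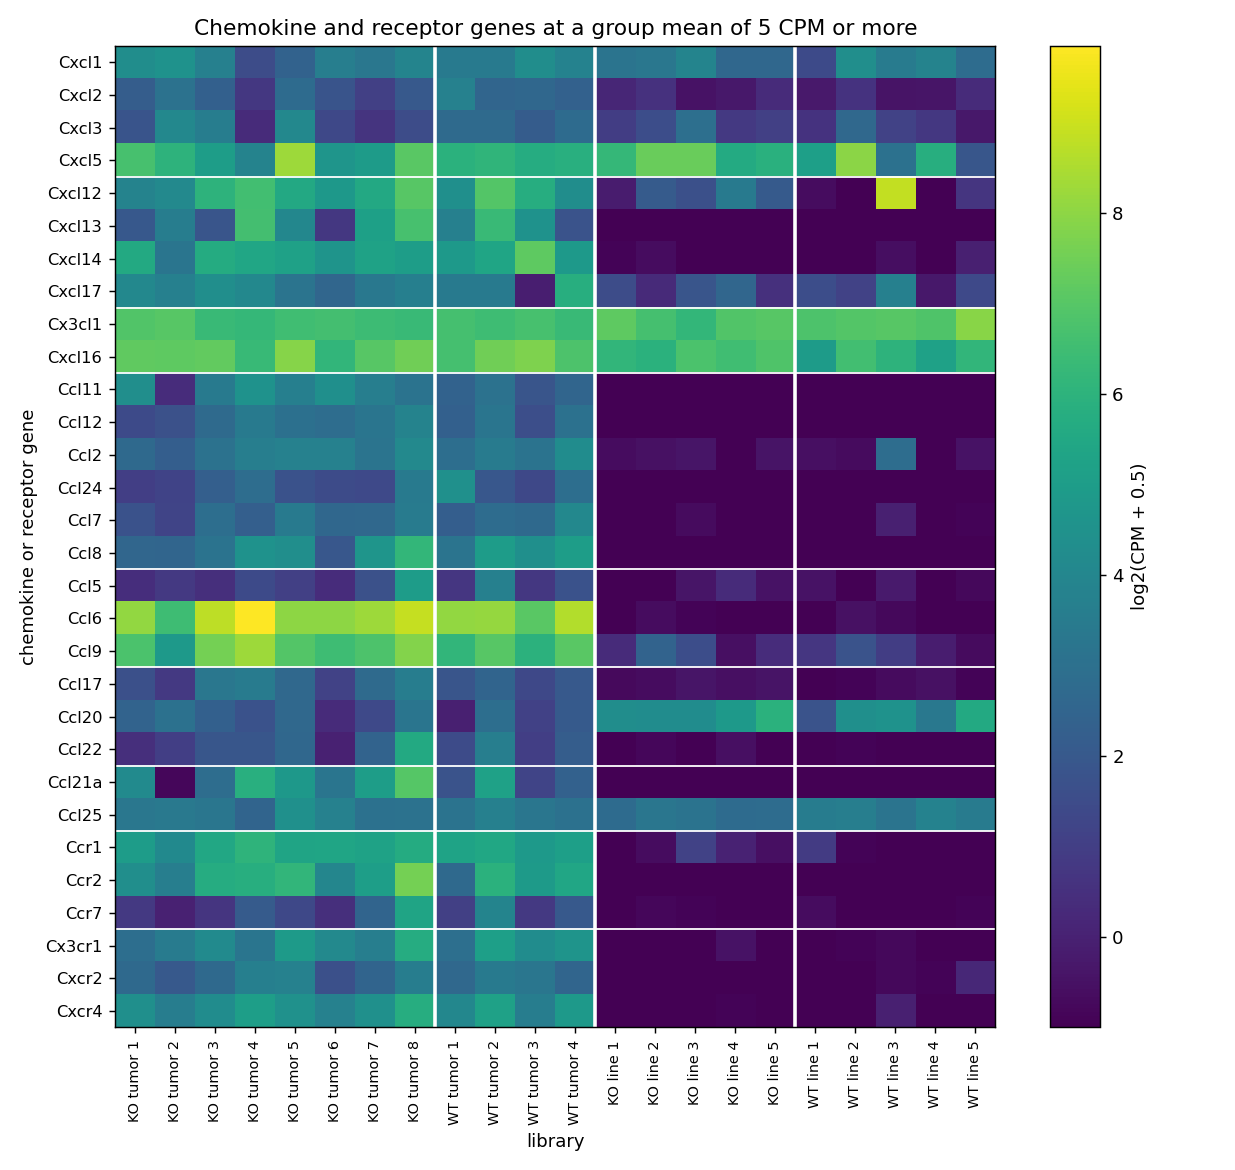
Level of 30 chemokine and receptor genes with a mean of 5 CPM or more in 1 or more groups (rows, by role) in each library (columns), as log2(CPM + 0.5). Receptor rows at the bottom are at or near the low end of the scale in the 10 lines, while Cxcl5, Cx3cl1, Cxcl16, Ccl20 and Ccl25 are present in tumors and lines.

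Per kilobase of annotated exons, which allows levels of different genes to be compared, the leading members differed between the materials. In KO tumors Ccl6 led with 211 ± 139.8 CPM per kb, followed by Ccl9 with 48.8 ± 28.8, Cxcl5 with 47.8 ± 53.1 and Cxcl16 with 47.0 ± 17.5 (mean ± SD, n = 8). In WT tumors Ccl6 led with 151 ± 58.8 CPM per kb, followed by Cxcl16 with 50.4 ± 18.3, Ccl8 with 45.6 ± 21.7 and Cxcl14 with 33.1 ± 30.1 (n = 4). In KO lines Cxcl5 led with 55.2 ± 31.4 CPM per kb, followed by Cxcl16 with 29.8 ± 7.84, Cx3cl1 with 28.9 ± 7.11 and Ccl20 with 20.8 ± 12.9 (n = 5). In WT lines Cxcl5 led with 37.5 ± 54.8 CPM per kb, followed by Cx3cl1 with 37.2 ± 14.3, Cxcl16 with 19.5 ± 8.55 and Ccl20 with 14.7 ± 12.1 (n = 5). In these orders each gene and the next overlapped within their SD, apart from Ccl6 and Cxcl16 in WT tumors.

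Between tumors and lines, 34 of the 45 members tested rose in KO tumors and 2 fell, and in WT tumors likewise 34 rose and 2 fell (edgeR quasi-likelihood tests in 1 fit of all 22 libraries, adjusted p under 0.05). Over all 18662 genes tested, 34.2% rose and 22.9% fell in KO tumors, and 28.0% rose and 18.5% fell in WT tumors. With DESeq2, which tested 26031 genes and 48 members, the KO split was 37 members up and 1 down (all genes 8698 up and 3666 down, against 6384 up and 4270 down with edgeR), and Cxcl15 had no adjusted p. With RLE scaling alone it was 36 members up and 2 down (all genes 6944 up and 3494 down). All 13 receptors tested rose in both genotypes, and of the 32 ligands 21 rose and 2 fell in each. The 33 members that rose in both genotypes comprised these 13 receptors and 20 ligands. Ccl28 rose in KO tumors and did not pass in WT tumors, and Cxcl16 rose in WT tumors and did not pass in KO tumors. Ccl20 fell in both, Cxcl15 fell in KO tumors and Cx3cl1 fell in WT tumors. The median log2 fold change of the 45 members, with genes at 0 counts in the lines set at their lower bound, was 5.94 in KO and 5.64 in WT, against 0.17 and 0.13 over all genes as fitted. The 9 members with too few counts to be tested were Ccl1, Ccl21b, Ccl26, Ccl27b, Ccr1l1, Ccr4, Ccr8, Ccr10 and Cxcr1. Every KO tumor exceeded every KO line for 32 members (20.5% of all genes), and every WT tumor exceeded every WT line for 32 (20.7%). Every KO tumor lay below every KO line for Ccl20 and Cxcl15 (13.1% of all genes), and every WT tumor below every WT line for Cx3cl1 (11.1%). Of the 47 members reaching 1 CPM in any library, 36 were higher in the tumor in each of the 5 animals with both materials. Ccl20 and Cx3cl1 were lower in the tumor in every animal. Any difference counted, however small. In the animal of KO tumor 2 and KO line 1, Cxcl10 had 2.54 against 2.47 CPM and Cxcr6 0.0348 against 0 CPM. The same count was not made over all genes, so it has no background beside it. The leukocyte and fibroblast markers given above were also higher in every tumor than in every line, and their part in these counts was not tested.

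The ELR ligands of Cxcr2, the neutrophil chemokine receptor, were not uniformly higher in tumors (gene positions here and below are GENCODE vM21 on mm10). Cxcl1, Cxcl3 and Cxcl5 averaged 1 CPM or more in both groups of lines. Cxcl15 did so in KO lines only, and Cxcl2 in neither. Cxcl5 (ENSMUSG00000029371.7, chromosome 5, 90759360 to 90761624), a neutrophil attractant of epithelial cells, had 14.0 to 311 CPM (median 47.7) in KO tumors, against 60.5, 67.7, 52.1 and 57.1 CPM in WT tumors. In culture there were 75.5, 167, 165, 48.5 and 58.0 CPM in KO lines, against 34.0, 249, 7.88, 55.4 and 3.24 CPM in WT lines. Tumors and lines overlapped, with log2 fold changes of -0.21 in KO (adjusted p = 0.835) and -0.23 in WT (adjusted p = 0.855). The sign was not stable, since the log2 fold change was 0.05 in KO without KO line 2, 0.03 without KO line 3, and 1.24 in WT without WT line 2, and limma-voom gave 1.16 in WT (0.86 with the animal as a block). Cxcl1 (ENSMUSG00000029380.11, chromosome 5, 90891241 to 90893115), a closely related ligand, had 2.38 to 22.6 CPM (median 12.3) in KO tumors, against 10.7, 10.4, 19.6 and 13.6 CPM in WT tumors. It stood at 8.42, 9.31, 14.4, 5.61 and 5.64 CPM in KO lines, against 2.19, 19.9, 11.02, 14.0 and 6.69 CPM in WT lines. Its tumor and line values overlapped, and it passed the test in neither genotype (adjusted p = 0.386 in KO and 0.638 in WT). Cxcl2 (ENSMUSG00000058427.10, chromosome 5, 90903871 to 90905938) rose in tumors. It had 1.19 to 7.90 CPM (median 3.84) in KO tumors, against 13.0, 5.25, 5.68 and 4.68 CPM in WT tumors, and in the lines 0.617, 0.980, 0.230, 0.312 and 0.780 CPM in KO lines, against 0.334, 1.01, 0.241, 0.270 and 0.777 CPM in WT lines. All tumors of a genotype exceeded all of its lines (KO log2 fold change 2.78 ± 0.54 (SE), adjusted p = 2.30e-04; WT log2 fold change 3.76 ± 0.60 (SE), adjusted p = 5.87e-05). Cxcl3 had 0.769 to 16.1 CPM (median 2.69) in KO tumors, against 6.20, 6.23, 4.01 and 6.41 CPM in WT tumors, and 1.45, 2.45, 7.40, 1.25 and 1.60 CPM in KO lines, against 1.00, 5.77, 1.69, 1.19 and 0.302 CPM in WT lines. Its groups overlapped (adjusted p = 0.179 in KO and 0.161 in WT). Cxcl15, known mainly from mouse lung, had 0 to 0.474 CPM (median 0.155) in KO tumors, against 0, 0.269, 0.225 and 9.07 CPM in WT tumors. Its culture levels were 1.63, 1.47, 1.88, 1.02 and 1.42 CPM in KO lines, against 0.222, 0.463, 3.70, 0.0771 and 0.0432 CPM in WT lines. It fell in KO tumors (log2 fold change -2.92 ± 1.09 (SE), adjusted p = 0.0272), and in WT the single tumor at 9.07 CPM stood above all lines. Without that tumor the WT log2 fold change was -2.41 (adjusted p = 0.132), and without WT line 3 it was 3.54 (adjusted p = 0.0310).

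The lines differed strongly from each other in these ligands. Cxcl5 ranged over 76.8-fold across the 10 lines, Ccl20 over 20.7-fold and Cxcl1 over 9.09-fold, whereas Ccl25 ranged over 2.12-fold and Cx3cl1 over 3.38-fold. WT line 2 had the highest Cxcl1, Cxcl2 and Cxcl5 of all lines, and KO line 3 the highest Cxcl3, with WT line 2 second. WT line 5 had the lowest Cxcl3 and Cxcl5 but the second highest Ccl20, after KO line 5.

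**Figure D2:**
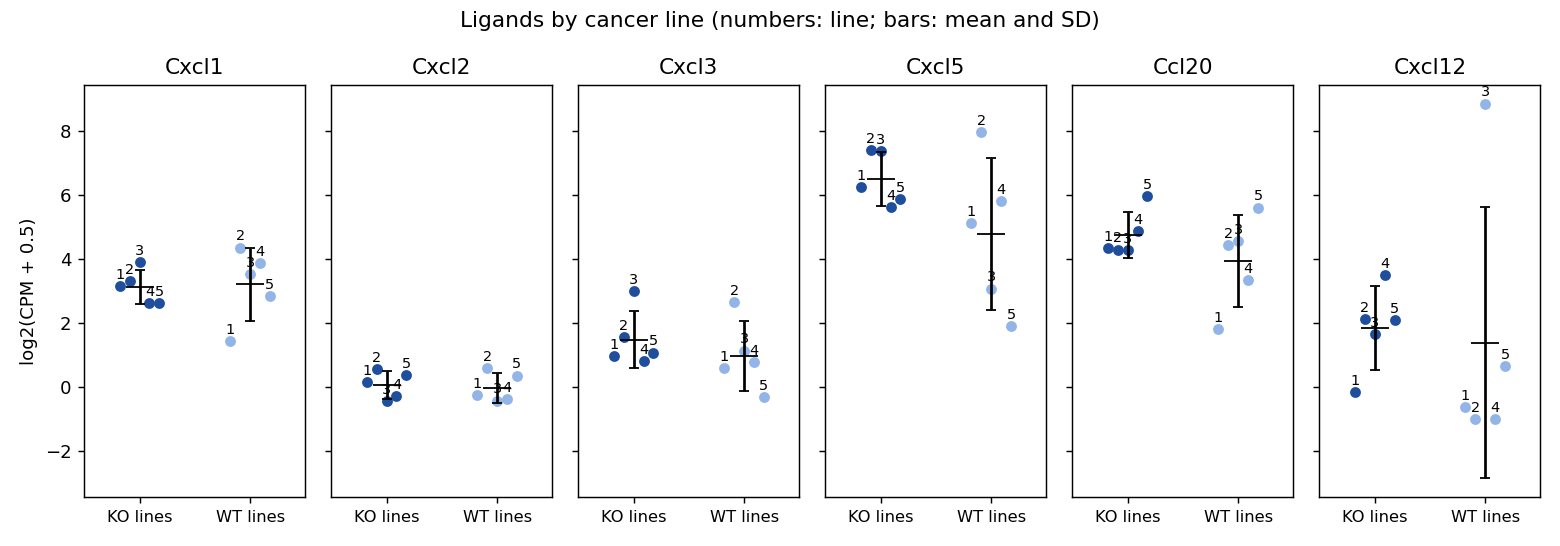
Level of 6 ligands in each cancer line, as log2(CPM + 0.5), with the line's number above its point and the mean and SD of each genotype as a bar. KO and WT lines overlap for all 6, and WT line 3 stands alone for Cxcl12 at 461 CPM.

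The promoters of several of these genes hold a match to the NF-kappaB motif, which binds the transcription factor that inflammatory signals activate. They are shown because Cxcl1, Cxcl2 and Cxcl3 share the same 11 bases there. RefSeq promoters (GRCm38.p6, 250 bases before to 50 after the start site) were held for 40 of the 54 members. Of these, 9 (22.5%) had a match on either strand, as did 5.14% of all 27025 genes in the table. The windows below lie on the plus strand, with the match in capitals:
Cxcl1: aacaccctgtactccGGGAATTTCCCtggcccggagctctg
Cxcl2: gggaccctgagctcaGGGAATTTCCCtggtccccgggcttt
Cxcl3: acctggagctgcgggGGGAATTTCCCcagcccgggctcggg
Ccl20: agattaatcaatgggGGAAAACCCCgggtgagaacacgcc
The windows are chr5:90891159-90891199, chr5:90903787-90903827, chr5:90786013-90786053 and chr1:83116671-83116710. The capitals begin 71 bases before the start site in Cxcl1, 97 in Cxcl2, 73 in Cxcl3 and 80 in Ccl20. In the first 3 the motif matches on both strands at overlapping positions. The other 5 members with a match were Cxcl10, Ccl9, Ccl27a, Ccr3 and Ccr6. The AP-1 motif TGANTCA, with C or G at N, was found in 7 of the 40 promoters (17.5%) and in those of 5.95% of all genes. A match is a description of the sequence and does not show a bound factor.

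Cxcr2 itself rose in tumors. It had 2.66 to 13.2 CPM (median 6.10) in KO tumors, against 5.92, 10.5, 9.17 and 5.33 CPM in WT tumors, and 0 CPM in each KO line, against 0, 0, 0.0804, 0.0385 and 0.647 CPM in WT lines. Its mean was at least 336-fold higher in KO tumors than in KO lines, which had 0 counts, taking 3 counts over the 5 lines as the limit (adjusted p = 5.05e-06). In WT its mean was 53.5 times the level over the pooled lines, which held 18 counts (95% counting interval 33.9 to 90.3), most of them in WT line 5 (log2 fold change 5.64 ± 0.94 (SE), adjusted p = 1.76e-04). Markers of neutrophils (6 genes, such as S100a8 and Ly6g) summed to 48.9 to 316 CPM in KO tumors, 66.9 to 139.5 CPM in WT tumors, 0 to 7.82 CPM in KO lines and 0.0402 to 2.82 CPM in WT lines. Cxcr1, the other neutrophil receptor, stayed at or below 0.180 CPM.

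Of the membrane-anchored ligands, Cx3cl1 was the more even across tumors. Cx3cl1 (ENSMUSG00000031778.13, chromosome 8, 94772009 to 94782427), or fractalkine, which tethers monocytes carrying Cx3cr1, had 75.2 to 132 CPM (median 89.9) in KO tumors, against 101, 89.4, 103 and 82.5 CPM in WT tumors. Levels were 143, 99.9, 72.6, 121 and 131 CPM in KO lines, against 113, 125, 132, 115 and 245 CPM in WT lines. Its highest tumor was only 1.76-fold above its lowest, the narrowest range of the members that averaged 5 CPM or more over the tumors. It fell in WT tumors (log2 fold change -0.64 ± 0.23 (SE), adjusted p = 0.0281), where all 4 tumors lay below all 5 lines. That call was lost under 7 of 30 alternatives, without WT line 5, WT tumor 2 or WT tumor 4 (adjusted p = 0.124, 0.0626 and 0.0760), under RLE scaling and DESeq2 (0.0501 and 0.0512), without the 3 tumors with the highest acinar markers (0.0685) and without KO tumor 8 and WT tumor 2 together (0.0642). Over all alternatives the log2 fold change was -0.72 to -0.37. In KO the groups overlapped (log2 fold change -0.24 ± 0.19 (SE), adjusted p = 0.289). Cx3cr1 had 7.18 to 52.6 CPM (median 14.4) in KO tumors, against 7.32, 33.9, 19.0 and 24.3 CPM in WT tumors, and at most 0.223 CPM in any line. It rose in both genotypes (adjusted p = 4.92e-07 in KO and 8.31e-07 in WT).

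Cxcl16 (ENSMUSG00000018920.11, chromosome 11, 70453983 to 70459984), the ligand of Cxcr6 on T cells and a scavenger receptor, had 70.5 to 234 CPM (median 144) in KO tumors, against 99.3, 182, 214 and 113 CPM in WT tumors. In the lines it had 71.1, 61.3, 109.6, 91.9 and 116 CPM in KO lines, against 30.4, 93.3, 64.7, 36.1 and 69.6 CPM in WT lines. All 4 WT tumors exceeded all 5 WT lines (log2 fold change 1.37 ± 0.35 (SE), adjusted p = 0.00352), whereas KO tumors and KO lines overlapped (log2 fold change 0.66 ± 0.30 (SE), adjusted p = 0.0701). In KO it was called higher under RLE scaling, with DESeq2, without KO tumor 4 and without KO tumor 6 (adjusted p = 0.0381, 0.0327, 0.0474 and 0.0326). The difference between these 2 changes did not pass the test (log2 difference -0.71, adjusted p = 0.711). Its exons share 552 bases with Zmynd15 on the opposite strand, which had 4234 counts in all against 70966 for Cxcl16. Cxcr6 had 0.0348 to 3.55 CPM (median 0.549) in KO tumors, against 0.490, 2.46, 1.41 and 0.576 CPM in WT tumors, and 0 CPM in all 10 lines. Its mean was at least 39.7-fold higher in KO tumors and at least 51.3-fold higher in WT tumors than in the lines.

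**Figure D3:**
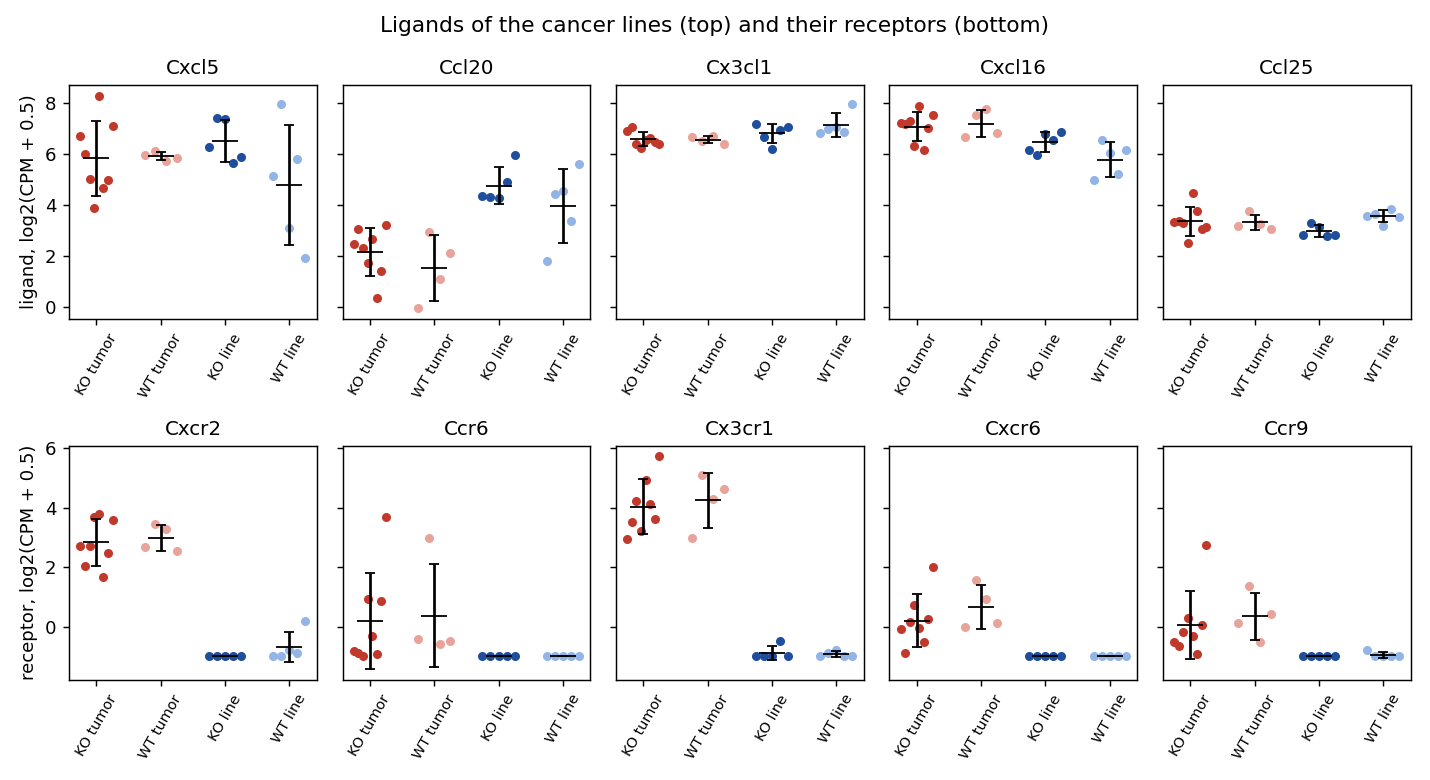
Level of 5 ligands expressed by the lines (top) and of their receptors (bottom) in each library, as log2(CPM + 0.5), with the mean and SD of each group as a bar. The ligands are present in all 4 groups, and the receptors lie at or near the bottom of the scale in both groups of lines.

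Ccl20 (ENSMUSG00000026166.14, chromosome 1, 83116766 to 83119167), which attracts cells carrying Ccr6, fell in tumors of both genotypes. It had 0.766 to 8.76 CPM (median 4.74) in KO tumors, against 0.455, 7.10, 1.64 and 3.74 CPM in WT tumors. In culture there were 19.6, 19.1, 18.8, 28.8 and 61.3 CPM in KO lines, against 2.97, 20.9, 23.0, 9.63 and 48.1 CPM in WT lines. All KO tumors lay below all KO lines (log2 fold change -2.65 ± 0.61 (SE), adjusted p = 0.00115), while WT tumors and lines overlapped (log2 fold change -2.69 ± 0.79 (SE), adjusted p = 0.00932). Ccr6 had 0 to 12.4 CPM (median 0.187) in KO tumors, against 0.245, 7.34, 0.160 and 0.216 CPM in WT tumors. It had 0 CPM in all 10 lines. KO tumor 8 and WT tumor 2 stood far above the other tumors. Ccr6 no longer passed in WT without WT tumor 2 or with no low-count filter (adjusted p = 0.151 and 0.0622). In KO it no longer passed with limma-voom (adjusted p = 0.0523, and 0.0859 with the animal as a block), and without KO tumor 4, 7 or 8 it had too few counts to be tested.

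Ccl25 (ENSMUSG00000023235.14, chromosome 8, 4325210 to 4360020), the ligand of the gut-homing receptor Ccr9, had 5.15 to 21.24 CPM (median 9.22) in KO tumors, against 8.40, 12.9, 9.01 and 7.78 CPM in WT tumors. It stood at 6.50, 9.10, 8.32, 6.36 and 6.59 CPM in KO lines, against 11.2, 12.0, 8.53, 13.5 and 11.05 CPM in WT lines. Tumors and lines overlapped in both genotypes (adjusted p = 0.104 in KO and 0.531 in WT). In KO it was called higher with DESeq2 and without the 3 tumors with the highest acinar markers (adjusted p = 0.0412 and 0.0341). Its exons share 204 bases with Elavl1 on the opposite strand. Elavl1 had 73525 counts in all against 5999 for Ccl25, and the strand setting of the counting is not given, so the Ccl25 level is uncertain. Ccr9 had 0.0333 to 6.15 CPM (median 0.339) in KO tumors, against 0.595, 2.09, 0.192 and 0.828 CPM in WT tumors, and at most 0.0741 CPM in any line. Ccl28, a mucosal ligand of Ccr10 and Ccr3, had 0.944 to 5.37 CPM (median 2.25) in KO tumors, against 0.560, 1.51, 0.417 and 2.45 CPM in WT tumors. Its culture levels were 0.254, 0.0700, 0.230, 0.579 and 0 CPM in KO lines, against 0.556, 0.969, 1.97, 0.848 and 0.863 CPM in WT lines. It rose in KO tumors (log2 fold change 3.45 ± 0.72 (SE), adjusted p = 4.59e-04) and overlapped in WT (log2 fold change 0.24 ± 0.71 (SE), adjusted p = 0.801). Ccl27a, the skin ligand of Ccr10, had 1.12 to 4.47 CPM (median 2.43) in KO tumors, against 1.82, 3.97, 1.83 and 1.98 CPM in WT tumors, and 1.92, 2.45, 2.68, 1.96 and 1.81 CPM in KO lines, against 1.71, 2.53, 2.70, 0.771 and 2.20 CPM in WT lines. It passed the test in neither genotype (adjusted p = 0.537 in KO and 0.575 in WT), and Ccr10 stayed at or below 1.04 CPM.

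Cxcl12 (ENSMUSG00000061353.11, chromosome 6, 117168535 to 117181367), the stromal ligand of Cxcr4, had 13.8 to 130.2 CPM (median 46.4) in KO tumors, against 20.7, 124, 53.1 and 19.2 CPM in WT tumors. Levels were 0.399, 3.85, 2.64, 10.7 and 3.72 CPM in KO lines, against 0.148, 0, 461, 0 and 1.08 CPM in WT lines. WT line 3 stood apart from the other 9 lines, which were at 10.7 CPM or less. That line also had the highest Ccl2 of the lines, at 6.92 CPM, and the highest Cxcl17, at 12.8 CPM. Its summed fibroblast markers were 15.7 CPM, the highest of the lines, and its macrophage markers 9.45 CPM, the lowest. With all lines Cxcl12 passed in neither genotype (KO log2 fold change 3.69 ± 1.58 (SE), adjusted p = 0.0519; WT log2 fold change -0.77 ± 1.57 (SE), adjusted p = 0.714). Without WT line 3 it was called higher in tumors in WT (log2 fold change 7.48) and in KO, where that line enters only through the shared estimate of the spread (log2 fold change 3.69, adjusted p = 0.00112). With the animal as a block it was called higher in both (log2 fold change 3.92 in KO and 6.81 in WT). In KO it was also called under RLE scaling, DESeq2 and limma-voom (adjusted p = 0.0477, 0.0154 and 0.0112) and without any 1 of the other 4 WT lines (adjusted p = 0.0340 to 0.0426). Cxcr4 had 11.7 to 53.5 CPM (median 21.1) in KO tumors, against 15.9, 36.3, 11.7 and 28.7 CPM in WT tumors, and at most 0.483 CPM in any line. It rose in both genotypes (adjusted p = 1.90e-07 in KO and 1.69e-06 in WT).

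Cxcl14, a CXC ligand of fibroblasts and epithelium, rose in tumors. It had 8.74 to 51.0 CPM (median 37.0) in KO tumors, against 29.1, 41.2, 143 and 29.1 CPM in WT tumors, and in the lines 0.0363, 0.140, 0, 0 and 0 CPM in KO lines, against 0, 0, 0.161, 0 and 0.475 CPM in WT lines. WT tumor 3 was far above the rest, and every tumor exceeded every line (adjusted p = 1.81e-07 in KO and 4.20e-07 in WT). Cxcl17, a mucosal ligand, had 5.46 to 20.02 CPM (median 12.5) in KO tumors, against 10.7, 10.5, 0.449 and 54.7 CPM in WT tumors. In the lines it had 2.36, 0.735, 3.10, 5.47 and 0.922 CPM in KO lines, against 2.48, 1.68, 12.8, 0.308 and 2.16 CPM in WT lines. It rose in both genotypes although tumors and lines overlapped (KO log2 fold change 2.33 ± 0.84 (SE), adjusted p = 0.0236; WT log2 fold change 2.29 ± 0.91 (SE), adjusted p = 0.0454), and its WT call was lost under 19 of 30 alternatives, among them without WT tumor 4 (log2 fold change 0.89, adjusted p = 0.444) and with the animal as a block (adjusted p = 0.162).

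All 6 tested genes listed as monocyte and eosinophil attractants, Ccl8 among them, rose in both genotypes, and 4 of them had 0 counts in all lines. None had enough counts in the lines to be tested there. Each passed the count filter through the tumors, so its rise was largely fixed in advance. Ccl2 and Ccl7, which had counts in lines, attract monocytes through Ccr2. Ccl2 (ENSMUSG00000035385.5, chromosome 11, 82035571 to 82037453) had 4.18 to 16.8 CPM (median 10.4) in KO tumors, against 7.07, 11.04, 8.18 and 18.9 CPM in WT tumors. In culture there were 0.145, 0.210, 0.268, 0 and 0.248 CPM in KO lines, against 0.185, 0.126, 6.92, 0 and 0.216 CPM in WT lines. All tumors of a genotype exceeded all of its lines (KO log2 fold change 5.82 ± 1.14 (SE), adjusted p = 2.57e-04; WT log2 fold change 2.92 ± 1.02 (SE), adjusted p = 0.0240). Without WT tumor 4 the WT call was lost (log2 fold change 2.55, adjusted p = 0.0640), as it was without the 3 tumors with the highest acinar markers (adjusted p = 0.0762). Ccl7 had 1.84 to 11.1 CPM (median 5.69) in KO tumors, against 4.201, 6.70, 6.13 and 16.4 CPM in WT tumors, and at most 0.483 CPM in any line.

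Ccl12, another Ccr2 ligand of the mouse, had 2.19 to 14.0 CPM (median 7.19) in KO tumors, against 4.59, 8.75, 2.57 and 7.70 CPM in WT tumors, and 0 CPM in all 10 lines. Its mean was at least 325-fold higher in KO tumors and at least 245-fold higher in WT tumors (adjusted p = 9.45e-07 in KO and 2.62e-06 in WT). Ccl8, whose mouse form acts through Ccr8, had 3.40 to 73.3 CPM (median 14.2) in KO tumors, against 8.58, 31.8, 20.9 and 32.0 CPM in WT tumors, and 0 CPM in all 10 lines. The mean was at least 903-fold higher in KO tumors and at least 969-fold higher in WT tumors (adjusted p = 1.89e-05 in KO and 3.82e-05 in WT). The eotaxins act on eosinophils through Ccr3. Ccl11 had 0.800 to 22.7 CPM (median 12.2) in KO tumors, against 4.76, 7.91, 3.18 and 5.26 CPM in WT tumors, and 0 CPM in all 10 lines. Its mean was at least 593-fold higher in KO tumors and at least 219-fold higher in WT tumors (adjusted p = 2.71e-06 in KO and 1.68e-05 in WT). Ccl24 had 1.54 to 10.5 CPM (median 2.55) in KO tumors, against 21.64, 3.33, 2.05 and 6.98 CPM in WT tumors, and 0 CPM in all 10 lines. Its mean was at least 179-fold higher in KO tumors and at least 353-fold higher in WT tumors (adjusted p = 2.43e-05 in KO and 2.67e-05 in WT). These 4 ligands were thus seen in whole tumors and not in the cultured lines.

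Ccr2 (ENSMUSG00000049103.14, chromosome 9, 124101950 to 124113557), the main receptor of Ccl2, Ccl7 and Ccl12, had 12.1 to 192 CPM (median 43.1) in KO tumors, against 5.95, 61.3, 29.7 and 42.3 CPM in WT tumors, and 0 CPM in all 10 lines. KO tumor 8 stood above all others, and WT tumor 1 was the lowest. Its mean was at least 2502-fold higher in KO tumors and at least 1448-fold higher in WT tumors than in the lines (adjusted p = 1.17e-05 in KO and 4.02e-05 in WT). Ccr3 stayed at or below 1.25 CPM in every library. Markers of macrophages and monocytes (8 genes) summed to 703 to 3598 CPM in KO tumors, 1131 to 2282 CPM in WT tumors, 21.1 to 121 CPM in KO lines and 9.45 to 162 CPM in WT lines, where 5 of the 8 were at 0 in KO lines and 5 in WT lines.

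The group of Ccl3, Ccl4, Ccl5, Ccl6 and Ccl9, inflammatory CC ligands, included abundant and low members, and all 5 rose in both genotypes. Ccl6 (ENSMUSG00000018927.3, chromosome 11, 83587882 to 83593087), a ligand of Ccr1 in the mouse, had 89.9 to 924 CPM (median 289) in KO tumors, against 273, 284, 135 and 393 CPM in WT tumors. It stood at 0, 0.140, 0.0383, 0 and 0 CPM in KO lines, against 0, 0.211, 0.0804, 0 and 0 CPM in WT lines. It took 14.99% to 50.9% of all ligand counts in KO tumors (mean 31.0%) and 15.3% to 37.5% in WT tumors (mean 27.7%). Its tumor mean was 10054 times the level over the pooled lines in KO, which held 5 counts (95% counting interval 4308 to 30964), and 4835 times in WT, whose lines held 7 counts (95% counting interval 2347 to 12026) (KO adjusted p = 1.23e-09, WT adjusted p = 3.69e-09). Ccl9 (ENSMUSG00000019122.8, chromosome 11, 83572919 to 83578636), its neighbour and a further Ccr1 ligand, had 29.0 to 303 CPM (median 119) in KO tumors, against 69.3, 129, 61.7 and 133 CPM in WT tumors. Its culture levels were 0.762, 4.94, 2.45, 0.178 and 0.815 CPM in KO lines, against 1.15, 2.95, 1.49, 0.424 and 0.129 CPM in WT lines. Every tumor exceeded every line (KO log2 fold change 6.33 ± 0.80 (SE), adjusted p = 2.57e-06; WT log2 fold change 6.32 ± 0.84 (SE), adjusted p = 7.80e-06). KO tumor 4 was highest and KO tumor 2 lowest for both Ccl6 and Ccl9.

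Ccl3 and Ccl4, macrophage inflammatory proteins, were low. Ccl3 had 0.940 to 3.34 CPM (median 1.61) in KO tumors, against 4.73, 2.83, 1.35 and 4.75 CPM in WT tumors, and 0 CPM in all 10 lines. The mean was at least 81.1-fold higher in KO tumors and at least 142-fold higher in WT tumors (adjusted p = 8.44e-07 in KO and 9.42e-07 in WT). Ccl4 had 0.278 to 1.34 CPM (median 0.735) in KO tumors, against 2.80, 1.31, 0.481 and 3.13 CPM in WT tumors, and 0 CPM in all 10 lines. Ccl5, a ligand of T and NK cells, had 0.799 to 31.6 CPM (median 1.41) in KO tumors, against 1.12, 12.6, 1.19 and 2.84 CPM in WT tumors. Levels were 0, 0, 0.268, 0.757 and 0.213 CPM in KO lines, against 0.222, 0, 0.362, 0 and 0.0863 CPM in WT lines. Its KO call was lost without the 3 tumors with the highest acinar markers (log2 fold change 2.44, adjusted p = 0.0502).

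The receptor Ccr1 rose in both genotypes. Ccr1 (ENSMUSG00000025804.5, chromosome 9, 123962124 to 123968692), carried by monocytes and neutrophils, had 17.5 to 65.2 CPM (median 40.7) in KO tumors, against 38.5, 43.7, 28.9 and 34.7 CPM in WT tumors. In the lines it had 0, 0.140, 1.72, 0.534 and 0.177 CPM in KO lines, against 1.37, 0.0421, 0, 0 and 0 CPM in WT lines. Every tumor exceeded every line (KO log2 fold change 6.32 ± 0.99 (SE), adjusted p = 2.80e-05; WT log2 fold change 6.94 ± 1.07 (SE), adjusted p = 4.05e-05).

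Ccl17 and Ccl22, which dendritic cells and macrophages make to attract T cells with Ccr4, rose in tumors of both genotypes. Ccl17 had 1.25 to 11.8 CPM (median 6.01) in KO tumors, against 3.19, 5.08, 2.09 and 3.53 CPM in WT tumors, and in the lines 0.109, 0.140, 0.268, 0.178 and 0.248 CPM in KO lines, against 0, 0.0421, 0.121, 0.193 and 0.0432 CPM in WT lines. Every tumor exceeded every line (adjusted p = 5.92e-06 in KO and 1.48e-05 in WT). Ccl22 had 0.4996 to 47.5 CPM (median 3.23) in KO tumors, against 2.28, 12.0, 1.54 and 4.10 CPM in WT tumors, and at most 0.178 CPM in any line (adjusted p = 1.61e-04 in KO and 2.82e-04 in WT). KO tumor 8 and WT tumor 2 were the highest of their groups. The receptors Ccr4 and Ccr8 and the ligand Ccl1 stayed at or below 1.21, 0.556 and 0.348 CPM.

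The interferon-induced ligands of Cxcr3, which attract activated T cells, were low. Cxcl9 had 0.115 to 19.5 CPM (median 0.834) in KO tumors, against 1.51, 7.67, 0.545 and 1.58 CPM in WT tumors, and at most 0.0700 CPM in any line. Cxcl10 had 0.577 to 9.73 CPM (median 2.70) in KO tumors, against 5.92, 4.28, 1.76 and 3.24 CPM in WT tumors. In culture there were 2.47, 1.995, 3.49, 3.38 and 2.06 CPM in KO lines, against 1.71, 3.41, 2.94, 0.809 and 0.906 CPM in WT lines. Cxcl9 rose in both genotypes (adjusted p = 0.00212 in KO and 0.00188 in WT), and Cxcl10, already present in the lines, passed in neither (adjusted p = 0.656 in KO and 0.189 in WT). Cxcr3 had 0.104 to 5.14 CPM (median 0.442) in KO tumors, against 0.210, 2.73, 0.257 and 0.576 CPM in WT tumors, and at most 0.0741 CPM in any line. Exons of Cxcl10 share 133 bases with Art3 on the opposite strand, which had 1131 counts in all against 1802. Cxcl11 is annotated as a polymorphic pseudogene and was not a member.

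The chemokines of lymphoid tissue varied widely between tumors. Ccl21a (ENSMUSG00000094686.1, chromosome 4, 42772860 to 42773993), which guides cells carrying Ccr7 into lymph nodes, had 0.0696 to 126 CPM (median 22.4) in KO tumors, against 2.94, 37.0, 1.83 and 4.68 CPM in WT tumors, and 0 CPM in all 10 lines. Its mean was at least 1526-fold higher in KO tumors and at least 482-fold higher in WT tumors (adjusted p = 4.88e-04 in KO and 0.00207 in WT). With the animal as a block Ccl21a no longer passed in KO (adjusted p = 0.0542), and with limma-voom without the block it no longer passed in WT (adjusted p = 0.0604). Cxcl13 (ENSMUSG00000023078.6, chromosome 5, 95956951 to 95961068), which draws B cells with Cxcr5 into follicles, had 1.20 to 104 CPM (median 13.5) in KO tumors, against 12.8, 80.7, 22.9 and 2.95 CPM in WT tumors, and 0 CPM in all 10 lines. Its mean was at least 1495-fold higher in KO tumors and at least 1241-fold higher in WT tumors (adjusted p = 4.30e-04 in KO and 8.70e-04 in WT). Across all 12 tumors Cxcl13 ranged over 86.4-fold. Ccl21a ranged over 1808-fold, but that ratio is of uncertain size, since its lowest tumor, KO tumor 2, held 2 counts (0.0696 CPM). Ccr7 had 0.487 to 39.4 CPM (median 1.63) in KO tumors, against 1.58, 14.6, 1.25 and 3.56 CPM in WT tumors, and at most 0.148 CPM in any line. Ccl19, the other Ccr7 ligand, had 0 to 8.13 CPM (median 0.448) in KO tumors, against 0.245, 3.94, 0.0321 and 0.144 CPM in WT tumors, and 0 counts in each of the 10 lines. Cxcr5 had 0.0666 to 31.4 CPM (median 0.389) in KO tumors, against 0.175, 15.01, 0.128 and 0.252 CPM in WT tumors, and at most 0.168 CPM in any line, and its exons share 110 bases with Bcl9l on the opposite strand, which had 67513 counts in all against 1601. Without WT tumor 2 neither Ccl19 nor Cxcr5 passed in WT (adjusted p = 0.143 and 0.753), and with limma-voom Cxcr5 did not pass in WT (adjusted p = 0.297, and 0.212 with the animal as a block).

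The same tumors led for many members. Of the 47 members that reached 1 CPM in a tumor, KO tumor 8 was the highest of the 12 tumors for 23, among them Ccl19, Ccl21a, Cxcl13, Ccr7 and Cxcr5. WT tumor 2 was the highest for 2 and the second highest for 14. WT tumor 4 was the highest for 6, Ccl2, Ccl3, Ccl4, Ccl7, Cxcl15 and Cxcl17, and KO tumor 2 the lowest for 18. These counts were not made over all genes, so they have no background beside them. Some members were among the 47 only through their leading tumor. Ccr3 reached 1 CPM only in KO tumor 8 (1.25 CPM), and Ccr10 only in WT tumor 2 (1.04 CPM). Summed markers of B and plasma cells (5 genes) were 588 CPM in KO tumor 8 and 589.9 CPM in WT tumor 2, against 3.70 to 307 CPM in the other KO tumors and 12.0 to 162 CPM in the other WT tumors. Summed markers of T and NK cells (8 genes) were 177 CPM in KO tumor 8 and 64.0 CPM in WT tumor 2, against 0.899 to 25.6 CPM in the other KO tumors and 6.23 to 6.37 CPM in the other WT tumors. The lines had 1.47 to 3.12 CPM of this list in KO and 0.563 to 9.02 CPM in WT, so the sums of the lower tumors overlapped those of the lines. In each group of lines 6 of the 8 genes had 0 counts in all libraries, whereas each of the 8 had counts in tumors of both genotypes. The line sums thus came from the rest of the list. The part of these cells in the chemokine values was not tested. Without both tumors, 33 members rose and 2 fell in KO tumors, and 31 rose and 1 fell in WT tumors, of 44 tested. Over all 18862 genes tested there, 5971 rose and 4267 fell in KO tumors, and 4564 rose and 3152 fell in WT tumors.

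**Figure D4:**
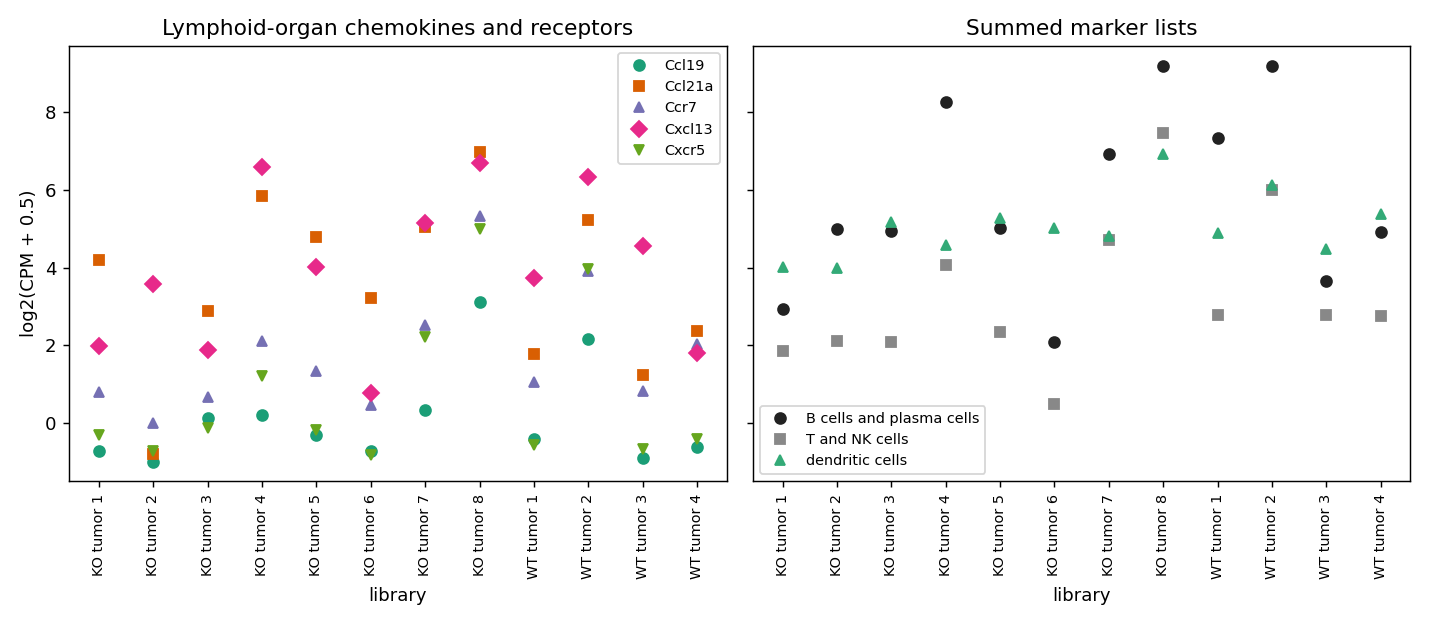
Level of 5 lymphoid-tissue genes (left) and summed marker lists of 3 cell types (right) in each of the 12 tumors, as log2(CPM + 0.5). Ccr7 is in the left panel and also in the dendritic-cell list, so that list is not independent of the left panel. In KO tumor 8 Ccr7 made up 39.4 of the 122 CPM of the list. KO tumor 8 and WT tumor 2 are at or near the top of their genotype in both panels, and KO tumor 4 and KO tumor 7 come next for Cxcl13 and the B-cell list among KO tumors.

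Comparison of KO with WT asked which members differed without miR-21. In tumors, 0 of the 44 members tested passed (edgeR quasi-likelihood test, 18125 genes, 0.011% of which passed). DESeq2 and limma-voom also called 0, and 3 members had an unadjusted p under 0.05, against 16.7% of all genes. In 0 members did all KO tumors lie on 1 side of all WT tumors (1.91% of all genes). The median log2 fold change of the members was 0.09 and that of all genes 0.01.

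The 5 members with the smallest p in tumors were Ccl3, Ccl4, Ccl11, Cxcl2 and Cxcl14. Ccl3 averaged 1.83 ± 0.709 CPM in KO tumors (SD, n = 8) and 3.41 ± 1.65 CPM in WT tumors (n = 4), with log2 fold change -0.93 ± 0.37 (SE), adjusted p = 0.238 (unadjusted p = 0.0255). WT tumor 2, at 2.83 CPM, and WT tumor 3, at 1.35 CPM, lay within the range of the KO tumors. Ccl4 averaged 0.845 ± 0.403 CPM in KO tumors, against 1.93 ± 1.25 CPM in WT tumors (log2 fold change -1.23 ± 0.49 (SE), adjusted p = 0.241). Ccl11 averaged 13.4 ± 7.30 CPM in KO tumors, against 5.28 ± 1.97 CPM in WT tumors (log2 fold change 1.32 ± 0.60 (SE), adjusted p = 0.296), and 7 of the 8 KO tumors exceeded all 4 WT tumors. Cxcl2 averaged 4.04 ± 2.27 CPM in KO tumors, against 7.15 ± 3.91 CPM in WT tumors (log2 fold change -0.85 ± 0.48 (SE), adjusted p = 0.389). Cxcl14 averaged 35.1 ± 13.6 CPM in KO tumors, against 60.5 ± 55.0 CPM in WT tumors (log2 fold change -0.84 ± 0.47 (SE), adjusted p = 0.390), and without WT tumor 3 its log2 fold change was 0.07. Ccl21a had the largest log2 fold change, 1.55, with an adjusted p of 0.543. For the abundant Ccl6, Ccl9, Cxcl16 and Cx3cl1 the log2 fold changes were 0.44, 0.56, -0.13 and 0.01, with SE of 0.47, 0.47, 0.31 and 0.17.

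In the lines, 15 members, all ligands, had enough counts to be tested, and 0 passed (14020 genes, 0.0143% of which passed). DESeq2 and limma-voom also called 0, and 2 members had an unadjusted p under 0.05, against 6.99% of all genes. In 0 members did all KO lines lie on 1 side of all WT lines (1.26% of all genes). The median log2 fold change of the members was 0.16 and that of all genes -0.03. The smallest p belonged to Ccl25, which averaged 7.37 ± 1.25 CPM in KO lines, against 11.3 ± 1.82 CPM in WT lines (± SD over 5 lines each), with log2 fold change -0.61 ± 0.20 (SE), adjusted p = 0.713. The overlapping Elavl1 had a log2 fold change of -0.22 ± 0.11 (SE). Ccl28 averaged 0.227 ± 0.224 CPM in KO lines, against 1.04 ± 0.542 CPM in WT lines (log2 fold change -2.20 ± 0.74 (SE), adjusted p = 0.713). Only KO line 4 reached the lowest WT line. Cxcl16 averaged 89.995 ± 23.7 CPM in KO lines, against 58.8 ± 25.8 CPM in WT lines (log2 fold change 0.62 ± 0.30 (SE), adjusted p = 0.715). Cxcl12 averaged 4.26 ± 3.85 CPM in KO lines, against 92.4 ± 206 CPM in WT lines (log2 fold change -4.45 ± 2.20 (SE), adjusted p = 0.715), and without WT line 3 its log2 fold change was 3.80, of the opposite sign. Cx3cl1 averaged 114 ± 28.0 CPM in KO lines, against 146 ± 56.1 CPM in WT lines (log2 fold change -0.36 ± 0.25 (SE), adjusted p = 0.754).

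The difference between the KO effect in tumors and in lines passed for 0 of the 45 members tested (0.0% of 18662 genes). DESeq2 and limma-voom also called 0 members, and 4 had an unadjusted p under 0.05, against 8.25% of all genes. Ccl28 had the smallest p. Its KO effect was 0.98 in tumors and -2.20 in lines, and their difference in the joint fit was 3.21 ± 0.99 on the log2 scale (adjusted p = 0.442). Cxcr2, Cxcl15 and Ccl2 followed (adjusted p = 0.446, 0.497 and 0.605). The fitted difference of Cxcr2 has no fixed size, since KO lines had 0 counts, and it was 1.28 to 5.41 over 30 alternatives, with 2.91 without WT line 5. That of Cxcl15 was -4.32, and -0.51 without WT tumor 4 (-6.46 to -0.46 over 30 alternatives), and that of Ccl2 was 2.90, with the opposite sign, -0.56, without WT line 3. Cxcl15 was highest of the tumors in WT tumor 4, at 9.07 CPM, and Ccl2 highest of the lines in WT line 3, at 6.92 CPM.

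**Figure D5:**
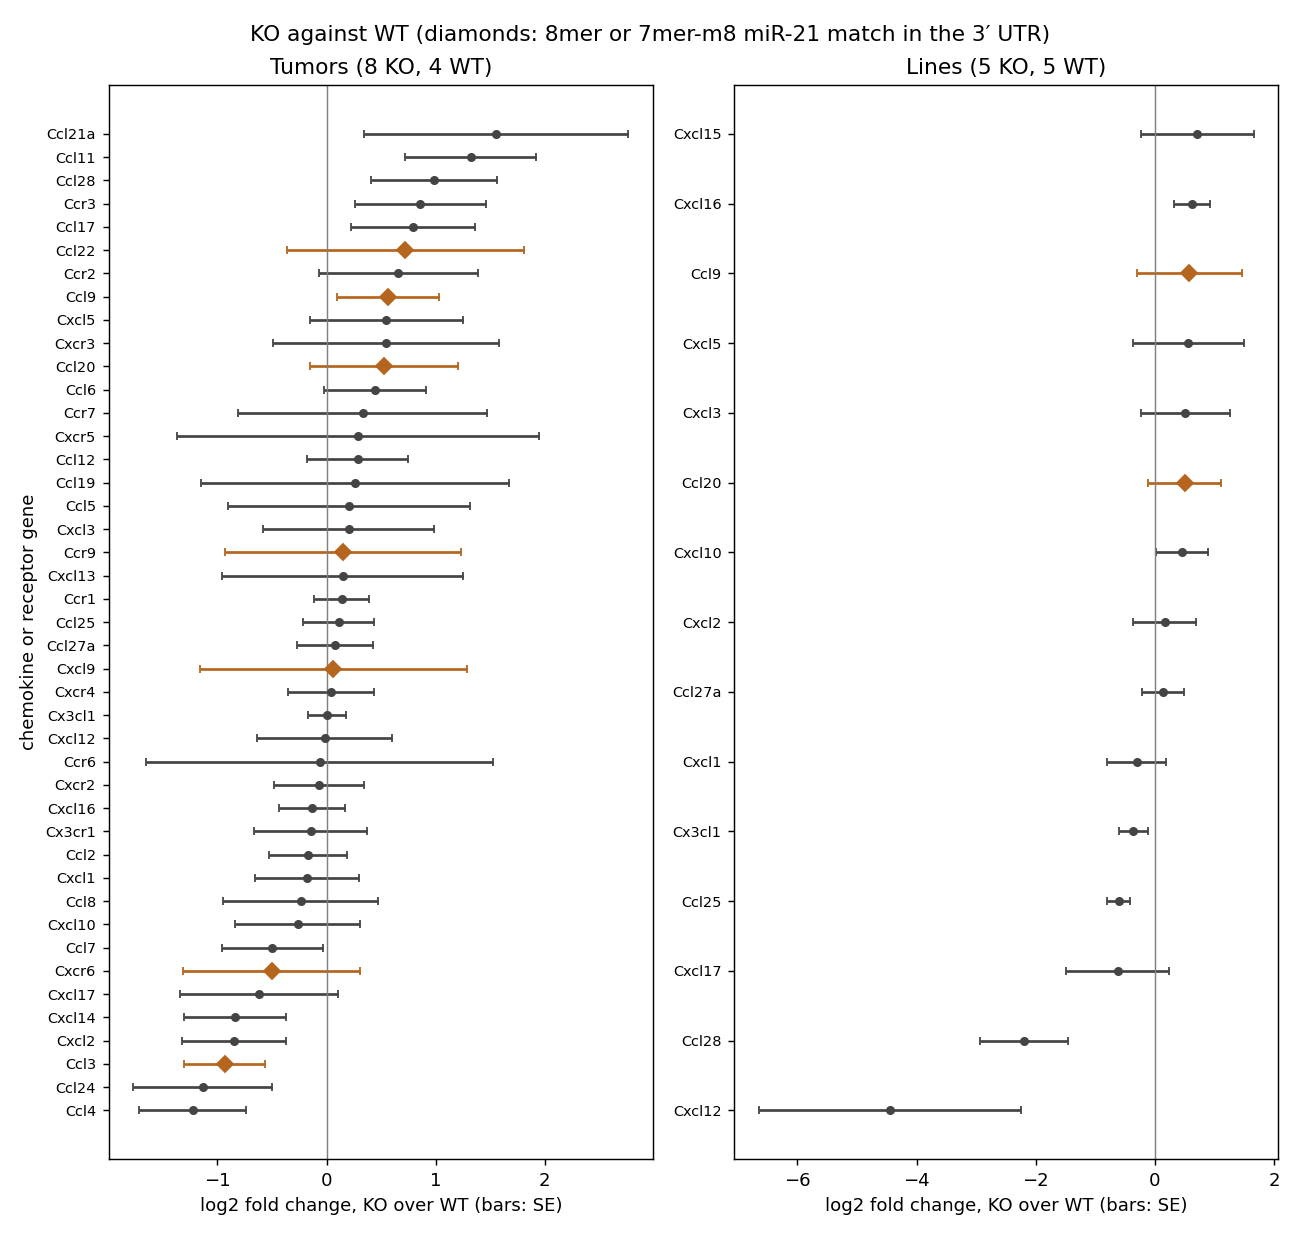
Log2 fold change of KO over WT, with its SE, for 43 of the 44 members tested in tumors (left) and the 15 tested in lines (right), which have different horizontal scales. Diamonds mark members with an 8mer or 7mer-m8 match to the miR-21 seed in the longest annotated 3′ UTR, and 0 members passed the test in either panel.

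Seed matches were looked up because miR-21 acts on mRNAs that carry them. The mature strand, mmu-miR-21a-5p (RefSeq, GRCm38.p6, chromosome 11, 86584120 to 86584141, minus strand), has its seed, bases 2 to 8, in capitals:
mmu-miR-21a-5p: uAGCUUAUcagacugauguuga
Among the 52 members with an annotated 3′ UTR of at least 20 bases, 8 (15.4%) held an 8mer or 7mer-m8 match in their longest one, as did 7.22% of all 20879 such protein-coding genes. The median UTR length was 766 bases in members and 968 bases in all genes. The matches are in capitals, and the last A of an 8mer lies opposite the first base of miR-21, outside the seed:
Ccl20: cctttttgtcaacaATAAGCTAttgtaaa
Ccl22: gtttgtttggtattATAAGCTAtagttat
Ccr9: aatgagcaagaagtATAAGCTAtactgtc
Ccl1: acctcagtcatgtgATAAGCTAtgttatg
Ccl9: ataaattttttttgATAAGCTgaccattg
Ccl3: tagctccatctcctATAAGCTgtttgctg
Cxcl9: ggccatctagaaacATAAGCTtacatgga
Cxcr6: acaggccagaataaATAAGCTgaatttca
Those of Ccl20, Ccl22, Ccr9 and Ccl1 are 8mers, and the other 4 are 7mer-m8 matches. All lie in 3′ UTR exons of GENCODE vM21 on mm10, at chr1:83119032-83119060, plus strand for Ccl20, chr8:94750802-94750830, plus strand for Ccl22, chr9:123782244-123782272, plus strand for Ccr9 and chr11:82176690-82176718, minus strand for Ccl1. Those of Ccl9, Ccl3, Cxcl9 and Cxcr6 lie at chr11:83573924-83573952, minus strand, chr11:83648134-83648162, minus strand, chr5:92322332-92322360, minus strand and chr9:123811540-123811568, plus strand.

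Of the 7 members with a match that were tested in tumors, 5 had a positive and 2 a negative log2 fold change in KO, and 0 passed. The values were 0.72 for Ccl22, 0.56 for Ccl9, 0.53 for Ccl20, 0.15 for Ccr9, 0.06 for Cxcl9, -0.50 for Cxcr6 and -0.93 for Ccl3. Their median was 0.15, beside 0.08 for the other 37 members. These 37 include Cxcl10 and Cxcl12, which held a 7mer-A1 match, to bases 2 to 7 of miR-21 followed by an A. In the lines 2 were tested, Ccl9 at 0.58 ± 0.88 and Ccl20 at 0.50 ± 0.61 (SE), both positive and neither past the test. Ccl3, the member with the smallest p in tumors, has a match and was lower in KO by its mean.

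Genes that act around the members were taken from 3 lists. The atypical receptors, which bind chemokines without G protein signalling, and other chemokine genes numbered 9. In KO against WT, 0 of 7 tested passed in tumors and 0 of 3 in lines, and in tumors against lines 4 of 7 rose in KO (34.2% of all genes) and 7 of 7 in WT (28.0%). Ackr3, the atypical receptor of Cxcl12, averaged 48.7 ± 34.2 CPM in KO tumors, 69.4 ± 52.7 CPM in WT tumors, 38.2 ± 9.47 CPM in KO lines and 22.9 ± 7.40 CPM in WT lines. It had the smallest p of the list in lines (log2 fold change 0.74, adjusted p = 0.713). Ppbp, a platelet ligand of Cxcr2, averaged 2.91 ± 2.76 CPM in KO tumors, against 9.56 ± 4.77 CPM in WT tumors, the smallest p of the list in tumors (log2 fold change -1.75 ± 0.58 (SE), adjusted p = 0.191).

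The list of receptor signalling held 15 genes, of which 0 of 15 passed for KO in tumors and 0 of 9 in lines. In tumors against lines, 10 rose and 1 fell in KO (34.2% and 22.9% of all genes), and 9 rose and 1 fell in WT (28.0% and 18.5%). Gnb1, a G protein beta subunit, had the smallest p of the list in lines, where it averaged 574 ± 24.8 CPM in KO lines, against 470.5 ± 33.5 CPM in WT lines (log2 fold change 0.29 ± 0.09 (SE), adjusted p = 0.713). Plcb3, a phospholipase downstream of G proteins, had the smallest p in tumors, where it averaged 161 ± 37.1 CPM in KO tumors, against 205 ± 39.9 CPM in WT tumors (log2 fold change -0.37 ± 0.20 (SE), adjusted p = 0.381). The list of inducers held 15 genes, such as Tnf, Il1b and the NF-kappaB subunits. In KO against WT, 0 of 13 passed in tumors and 0 of 11 in lines, and in tumors against lines 8 of 13 rose in each genotype (34.2% of all genes in KO and 28.0% in WT). Il1a, an alarm cytokine, averaged 21.98 ± 9.78 CPM in KO tumors, against 47.4 ± 27.8 CPM in WT tumors (log2 fold change -1.14 ± 0.48 (SE), adjusted p = 0.264). Nfkb1 averaged 76.4 ± 29.6 CPM in KO lines, against 122 ± 3.85 CPM in WT lines (log2 fold change -0.67 ± 0.22 (SE), adjusted p = 0.713). Both had the smallest p of the list in their comparison.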

How the data were processed

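Single-end stranded mRNA libraries (75 bases) were made from snap-frozen tumors and cultured lines, per the labels' protocols. The values used are gene counts deposited by the authors in 1 table for lines and 1 for tumors. Per the submitters' processing notes, bcl2fastq 1.9.0, Trim Galore, STAR and the mm10 build were used. The counting tool, its annotation and its strand setting are not given in the sources used here.

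Counts were joined by gene ID, annotated with GENCODE vM21 and scaled by TMM. Genes with low counts were removed with edgeR's filterByExpr (count minimum 10). KO was compared with WT by edgeR's quasi-likelihood test within lines and within tumors, and tumors with lines in 1 fit of all 22 libraries with 4 group means, which also gave the difference of the KO effects. Adjusted p-values are Benjamini-Hochberg over all genes tested, with a threshold of 0.05. No batch is given by the labels, and material is confounded with the separate tables. Nothing says how the 2 tables' libraries were spread over sequencing runs.

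Animals were matched across materials by the names in the titles (5 animals), and limma-voom with the animal as a block gave a consensus correlation of 0.287. Other alternatives were RLE size factors, DESeq2, limma-voom, other filters, leaving out each library, leaving out the 3 tumors with the highest acinar markers, and leaving out KO tumor 8 and WT tumor 2 together, the last chosen after seeing the data. A count of 0 was given a limit of 3 counts, over the group in fold bounds, and ratios on few counts have exact 95% Poisson intervals of the line counts. Intervals and limits cover counting error only. The fits were tested on simulated counts. P-values measure the spread between these samples. No 2 libraries were identical, and the smallest chi-square per gene between any pair was 44.9.

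The members and lists were chosen with earlier results of these data known. Given by library were the 5 members with the smallest p in each KO comparison and members with a group mean of 5 CPM or more. The 10 called members with the largest log2 fold change between WT tumors and WT lines were given with their test, and up to 4 genes a pathway list by smallest p. Tools were R 4.3.3, edgeR 4.0.16, limma 3.58.1 and DESeq2 1.42.0. The values of 1 member are not reported here, and counts over the members include it.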

Additional observations from a re-analysis of the deposited data

Results flagged for a closer look

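The sets examined were 68, each a member in 1 group of libraries with a mean of 5 CPM or more there. In 16 of them a library stood apart from the rest of its group by Dixon's criterion. The usual chance rate of about 1 in 20 cannot be set beside this count. A single high library can lift a set to that mean, and members that share a high library are not independent. KO tumor 8 was the high library for 6 members, with 126 CPM of Ccl21a, 47.5 CPM of Ccl22, 31.6 CPM of Ccl5, 73.3 CPM of Ccl8, 192 CPM of Ccr2 and 39.4 CPM of Ccr7. KO tumor 4 was high for Ccl6 with 924 CPM, and KO tumor 5 for Cxcl5 with 311 CPM. Among WT tumors, WT tumor 2 was high for Ccl21a with 37.0 CPM, WT tumor 1 for Cxcl2 with 13.0 CPM and WT tumor 3 for Cxcl14 with 143 CPM, and WT tumor 3 was low for Cxcl3 with 4.01 CPM. Among lines, KO line 5 was high for Ccl20 with 61.3 CPM, WT line 5 for Cx3cl1 with 245 CPM, WT line 3 for Cxcl12 with 461 CPM and WT line 2 for Cxcl5 with 249 CPM.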

How the results depend on the processing

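The counts of members called stayed within 1.5 times of those reported under every alternative run. For tumors against lines they were 30 to 38 of those tested in KO and 30 to 38 in WT over 30 alternatives, and for KO against WT and for the difference of the KO effects they were 0 throughout. Over all genes DESeq2 called far more for KO against WT, 562 up and 318 down in tumors and 33 up and 12 down in lines, against 2 up and 0 down in each with edgeR, and 55 up and 19 down for the difference of the KO effects, against 0 with edgeR; the cause was not tested. Of the 36 calls in KO, 34 held without any single library, Cxcl17 was lost without KO line 2 or KO line 5, and Ccr6 could not be tested without KO tumor 4, 7 or 8. Of the 36 calls in WT, 30 held without any single library. Under the 8 alternatives that change another setting, 25 of the 36 KO calls held under all, 3 were lost under some and 8 had no test under some, and in WT 24 held, 6 were lost and 6 had no test. Cxcl12 changed sign in WT tumors against WT lines, at 6.33 with limma-voom, 6.81 with limma-voom and the animal as a replicate block, and 7.48 without WT line 3, and it ran from -1.57 to 7.48 with 1 library left out (WT line 3 had 461 CPM). Beside the calls named in the report, the block changed no call of the members that passed. Among members that had not passed, it newly called Cxcl12 in both genotypes and another member in WT. With the animal as a replicate block 33 members rose and 2 fell in KO (35 in all), and 34 rose and 2 fell in WT (36 in all). Over all 18662 genes tested with the block, 6538 rose and 4557 fell in KO, and 5926 rose and 3938 fell in WT. For the difference of the KO effects 0 members passed with the block. RLE size factors moved the median log2 fold change of all genes in KO to 0.28, against 0.17 with TMM. Depth limits the receptors in lines. In KO line 4, the smallest line library, a count of 0 allows up to 0.121 CPM before TMM scaling.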
